A study of Mus musculus with 24 samples.

Results

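The lysozyme genes of the mouse, Lyz1 and Lyz2, and 1 row named AHK23750.1 were followed through the maturation of a myeloid progenitor line in culture. These 3 rows were selected from a table of 45319 gene rows by values measured in these same libraries, so their levels and changes are given as a description, without a test. All 3 rows were found. AHK23750.1 was the only row without a mouse Ensembl identifier. Its identifier has the form of a protein accession, and neither the labels nor the table says what it encodes.

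The cells, named Lys-GFP-ER-HoxA9 and of strain C57Bl/6, were grown in RPMI1640 with serum, stem cell factor and 0.5 uM beta-estradiol. Poly(A) RNA was sequenced at 0, 4, 8, 12, 24, 36, 48, 72, 96 and 120 h of culture without beta-estradiol, with 2 libraries at each time (20 withdrawal libraries). A further 4 libraries, 1 each at 12, 36, 72 and 120 h, carry the label R07, which names a treatment by a code and says no more about it. Their stated treatment is the same withdrawal text as for all other samples, and whether beta-estradiol was present with R07 is not given. All 24 libraries come from this 1 line, so every group, the 0 h controls included, carries the line's constructs. How the reporter and the ER-HoxA9 fusion were introduced, and whether the line is 1 clone, is not stated in the labels. A library held between 36661334 and 49601719 counts in genes, and libraries of the same time correlated at r 0.991 to 0.998 across genes. The labels do not say that libraries of 1 time came from separate cultures, so p-values measure only the spread between these samples, which may be technical. The libraries of each time carry the letters A and B, and values are given in that order.

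Lysozyme cuts the sugar backbone of bacterial peptidoglycan and is one of the most abundant antimicrobial proteins of phagocytes. The mouse has a pair of neighbouring genes for it. Lyz2, also called lysozyme M, is the gene known from macrophages and granulocytes, and Lyz1, also called lysozyme P, is known from Paneth cells of the small intestine. Mice known under the lysozyme-GFP name carry the green fluorescent protein in the Lyz2 locus, where it serves as a marker of myeloid maturation. An ER-HoxA9 fusion is active while estradiol is present and holds progenitors in an immature state, and withdrawal releases them to mature.

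Lyz1 and Lyz2 lie side by side on chromosome 10 of mm10, both on the minus strand and with 4 exons each. Lyz1 spans chr10:117287797-117292868 and Lyz2 spans chr10:117277331-117282321, with 5475 bases between them. No other annotated gene overlaps either one. Their coding sequences, 447 bases each, differ at 22 bases, an identity of 95.08%. A stretch of 90 coding bases, from base 43 to base 132 of the coding sequence, holds 13 of those differences. It is printed from the reference transcripts because it shows where reads of the paralogs can be told apart. Capitals mark the bases that differ.
Lyz1: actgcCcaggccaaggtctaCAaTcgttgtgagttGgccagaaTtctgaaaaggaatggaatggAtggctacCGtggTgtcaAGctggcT
Lyz2: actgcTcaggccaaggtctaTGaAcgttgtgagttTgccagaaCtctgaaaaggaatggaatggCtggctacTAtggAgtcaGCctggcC

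Near-identical copies can lose reads to each other or to the multimapping class, so the transcripts were compared in windows of 101 bases, the length of 1 read. Of 1163 windows in the Lyz1 transcript, 22 (1.89%) also occurred in Lyz2. Of 1216 windows in Lyz2, 22 (1.81%) also occurred in Lyz1. None of the windows of either transcript occurred in the reference transcripts of any other gene. The map of windows along the transcripts shows that the shared ones fall in a pair of short blocks. Nearly all windows of each transcript thus differ from the other transcript by at least 1 base. Only exact matches were counted, so the placing of reads with sequencing errors was not assessed.

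**Figure D1:**
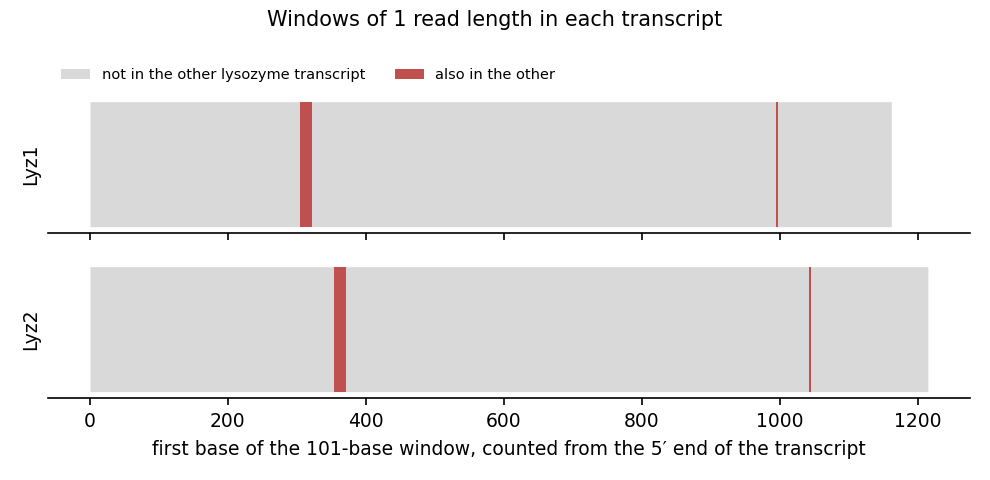
Every 101-base window of the Lyz1 and Lyz2 reference transcripts, placed by the position of its first base from the 5′ end (x axis, bases). Red marks windows that also occur in the other transcript (22 in each) and grey all others. The red blocks cover 1.89% of the Lyz1 windows and 1.81% of the Lyz2 windows.

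AHK23750.1 was low at the start and rose in steps. Levels are in CPM, the read count of a row relative to the library's total after TMM scaling between libraries, in the order of the letters. The row was at 0.735 and 0.785 CPM at 0 h and at 0.762 and 0.616 CPM at 4 h, levels that overlap. The 8 h libraries held 2.01 and 1.76 CPM, those of 12 h 6.17 and 6.86 CPM, those of 24 h 5.63 and 6.16 CPM and those of 36 h 9.85 and 9.38 CPM. From 8 h on both libraries of every time lay above both 0 h libraries, and the libraries of 12 and 24 h overlapped.

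A steeper rise of AHK23750.1 followed. The 48 h libraries held 81.8 and 52.5 CPM, those of 72 h 719 and 556 CPM, those of 96 h 1460 and 1278 CPM and those of 120 h 1484 and 1283 CPM. Each time up to 96 h lay wholly above the one before it, and 96 h and 120 h overlapped. The mean rose from 0.760 ± 0.0356 CPM (SD, n = 2) at 0 h to 1384 ± 142 CPM (SD, n = 2) at 120 h, 1821 times the starting level. The read numbers behind these values were 29 and 38 at 0 h and 55105 and 38262 at 120 h. On the log2 scale the fitted change from 0 h was -0.12 ± 0.35 (SE) at 4 h, 1.31 ± 0.30 (SE) at 8 h, 3.08 ± 0.25 (SE) at 12 h, 6.45 ± 0.23 (SE) at 48 h and 10.85 ± 0.25 (SE) at 120 h. By mean CPM the row stood at rank 11197 at 0 h, 3605 at 48 h and 84 at 120 h among all rows with a count at that time.

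Lyz1 was low up to 36 h and then rose further than AHK23750.1. The 0 h libraries held 0.228 and 0.145 CPM, those of 4 h 0.318 and 0.149 CPM, those of 8 h 0.246 and 0.143 CPM and those of 12 h 0.287 and 0.435 CPM. It was at 0.394 and 0.464 CPM at 24 h and at 0.418 and 0.278 CPM at 36 h. These values rest on 6 to 22 reads a library, and the levels of neighbouring times up to 36 h overlap, except that both 12 h libraries lay above both 8 h libraries. At 12, 24 and 36 h both libraries lay above both 0 h libraries, at 1.94, 2.30 and 1.87 times the 0 h mean.

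The steep rise of Lyz1 took place between 36 h and the last time measured. The libraries of 48 h held 2.11 and 1.76 CPM, those of 72 h 59.7 and 50.4 CPM, those of 96 h 632 and 402 CPM and those of 120 h 2402 and 2484 CPM. Each of these times lay wholly above the one before it. The mean rose from 0.186 ± 0.0590 CPM (SD, n = 2) at 0 h to 2443 ± 58.0 CPM (SD, n = 2) at 120 h, 13109 times the starting level, on 9 and 7 reads at 0 h and 89175 and 74061 reads at 120 h. The fitted log2 change from 0 h was 1.21 ± 0.55 (SE) at 24 h, 3.38 ± 0.40 (SE) at 48 h, 8.20 ± 0.29 (SE) at 72 h and 13.72 ± 0.29 (SE) at 120 h. Its rank by mean CPM went from 13027 at 0 h through 10270 at 48 h to 33 at 120 h. In bulk RNA, fewer cells that carry a transcript and less of it per cell cannot be told apart.

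Lyz2, the gene known as the myeloid lysozyme, was almost without reads. It had 0 reads in all 14 withdrawal libraries up to 48 h. It had 3 and 0 reads at 72 h, 3 and 1 reads at 96 h and 24 and 12 reads at 120 h, the last being 0.646 and 0.402 CPM. All 43 reads of the gene came from the last 3 times, whose libraries held 201894 Lyz1 reads. Whether some of the 43 are misplaced Lyz1 reads was not tested. A count of 0 in both 0 h libraries allows up to 0.0341 CPM (a limit of 3 counts over both libraries). With the reads of both 120 h libraries pooled, Lyz2 was at 0.538 CPM, 15.7 times that limit. This ratio leaves out the counting error of the 120 h reads, so it is not a minimum. Neither the state of the Lyz2 locus in this line nor the annotation release used for counting is given in the sources used here, which limits what the low counts of Lyz2 and its ratio to Lyz1 mean. The gene passed the filter on low counts only through the 120 h libraries, the group in which it was highest.

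Per kilobase of transcript (1263 bases for Lyz1 and 1316 for Lyz2), the level at 120 h was 1934 CPM per kilobase for Lyz1 and 0.399 CPM per kilobase for Lyz2, a ratio of 4854. Lyz1 held 99.97% and 99.98% of the reads of both genes in the 120 h libraries. For every 10000 Lyz1 reads there were 2.69 and 1.62 Lyz2 reads at 120 h, 1.45 and 0.740 at 96 h, and 12.3 and 0 at 72 h. All of the Lyz2 values at 72 and 96 h rest on at most 3 reads. Reads that map to more than 1 place made up 6.23 to 8.72% of a library and are in no gene row, and their share of lysozyme reads was not tested. Intervals and limits on read numbers cover counting error only.

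**Figure D2:**
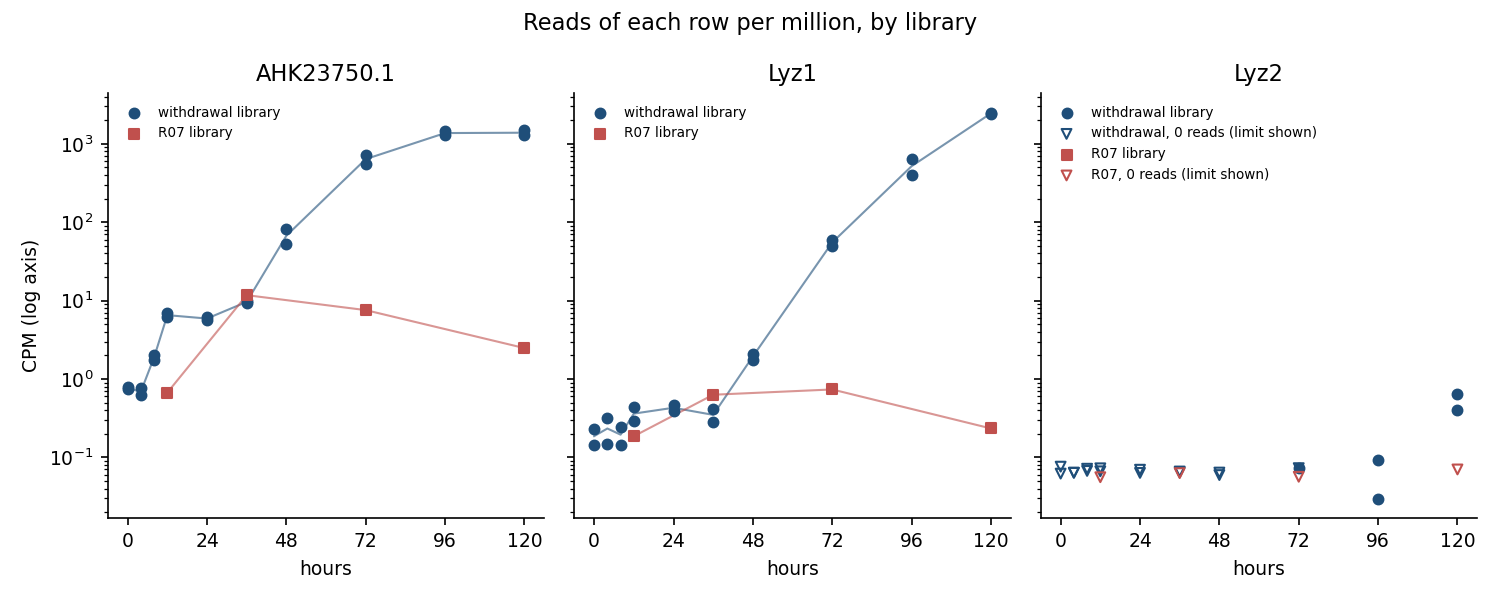
CPM (log axis) of AHK23750.1, Lyz1 and Lyz2 in each library against hours of culture. Circles are withdrawal libraries, squares R07 libraries, lines join the means of each time, and open triangles stand at the limit that a count of 0 allows in that library (3 counts). AHK23750.1 and Lyz1 climb in the withdrawal libraries to 1384 and 2443 CPM at 120 h, and the last R07 squares lie at 2.47 and 0.233 CPM.

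The timing of the rows differed although their end points were of the same order. AHK23750.1 stood at 4.85% of its 120 h mean at 48 h, 46.0% at 72 h and 99.0% at 96 h. Lyz1 stood at 2.25% of its 120 h mean at 72 h and 21.2% at 96 h. Both 120 h libraries lay above both 96 h libraries for Lyz1, and for AHK23750.1 the libraries of these times overlapped. The length of the AHK23750.1 transcript is not given, so its level cannot be compared with that of Lyz1 per length.

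**Figure D3:**
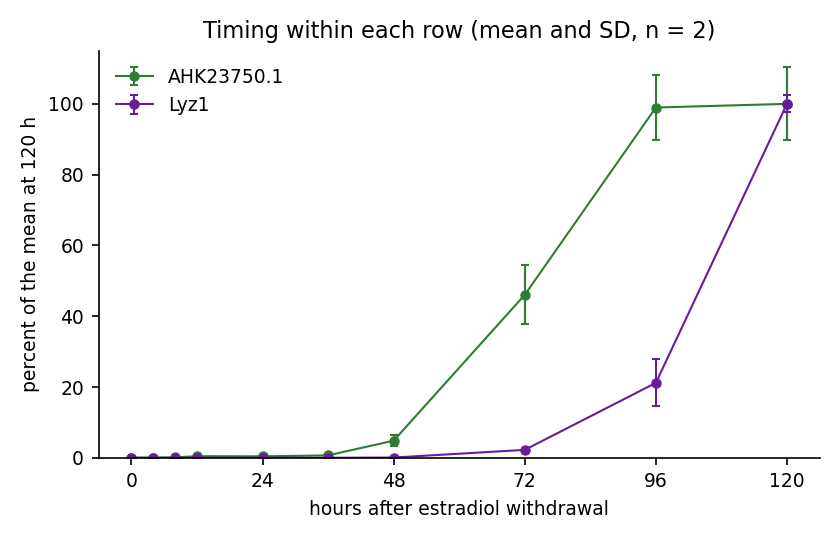
Mean CPM of AHK23750.1 (green) and Lyz1 (purple) as a percent of each row's own mean at 120 h, against hours after withdrawal. Bars are the SD over 2 libraries. AHK23750.1 reaches 46.0% at 72 h and 99.0% at 96 h, and Lyz1 is at 2.25% and 21.2% at those times.

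The ratio of the rows within a library needs no scaling between libraries. Up to 36 h this ratio rests on 6 to 22 Lyz1 reads a library. AHK23750.1 had 4.33 ± 1.56 reads per Lyz1 read (SD, n = 2) at 0 h, 3.27 ± 1.23 at 4 h, 10.3 ± 2.94 at 8 h and 18.6 ± 4.02 at 12 h. The ratio was lower at 24 h, at 13.8 ± 0.722, and stood at 28.6 ± 7.15 at 36 h and 34.3 ± 6.37 at 48 h. The ratio then fell to 11.5 ± 0.705 at 72 h, 2.74 ± 0.614 at 96 h and 0.567 ± 0.0716 at 120 h (SD, n = 2 each). The order of the rows thus turned between 96 and 120 h. This ratio was added after the values were seen, because the ratio to Lyz2 could be formed in only 2 libraries (at least 10 Lyz2 reads were required). In those 120 h libraries AHK23750.1 had 229604 and 318850 reads per 100 Lyz2 reads.

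**Figure D4:**
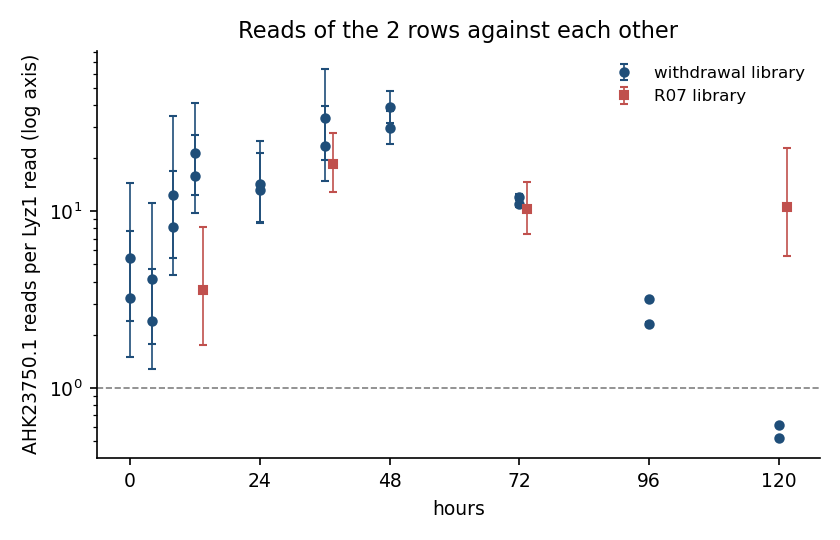
AHK23750.1 reads per Lyz1 read (log axis) in each library against hours of culture. Circles are withdrawal libraries and squares R07 libraries (moved slightly to the right), and bars are 95% exact binomial intervals, which cover counting error only. The withdrawal values reach about 34.3 at 48 h, with a dip at 24 h. They pass below the dashed line (1 read per read) at 120 h, where the R07 value is 10.6.

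With R07 neither row made the late rise. In single libraries AHK23750.1 was at 0.669 CPM at 12 h, 11.7 CPM at 36 h, 7.55 CPM at 72 h and 2.47 CPM at 120 h, on 36, 559, 401 and 106 reads. The exact 95% Poisson intervals were 0.468 to 0.926, 10.8 to 12.7, 6.83 to 8.32 and 2.03 to 2.99 CPM. The R07 library at 12 h was 9.74-fold lower than the mean of the withdrawal libraries at that time. At 36 h it was 1.22 times their mean and above both of them. The R07 libraries at 72 and 120 h were 84.4-fold and 559-fold lower. The highest R07 value, at 36 h, was 15.4 times the 0 h mean, and the last one 3.26 times.

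Lyz1 with R07 was at 0.186, 0.629, 0.734 and 0.233 CPM at 12, 36, 72 and 120 h, on 10, 30, 39 and 10 reads. The exact 95% Poisson interval at 36 h, 0.424 to 0.897 CPM, overlaps those of both withdrawal libraries of that time. At 72 h the R07 library was 75.0-fold lower than the withdrawal mean, and at 120 h the levels were 0.233 CPM and 2443 CPM. The AHK23750.1 reads per Lyz1 read were 3.6, 18.6, 10.3 and 10.6 in the R07 libraries. Lyz2 had 0 reads in all 4 R07 libraries, which allows up to 0.0557 to 0.0700 CPM in each. With 1 R07 library at each time, these differences have no replicate check.

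The sequences just before the genes are printed because the genes are close in coding sequence and far apart in level. They are 201 bases each from the RefSeq promoter table of mm10, read on the minus strand, 5′ to 3′, and end 50 bases before the RefSeq start of the gene. Capitals mark matches, on either strand, to the letters searched for: GGAA (the ETS core, bound by PU.1), TGNGGT (RUNX), TTGCNNAA (C/EBP) and TGANTCA (AP-1). The Lyz1 window is chr10:117292918-117293118 and the Lyz2 window chr10:117282322-117282522.
Lyz1: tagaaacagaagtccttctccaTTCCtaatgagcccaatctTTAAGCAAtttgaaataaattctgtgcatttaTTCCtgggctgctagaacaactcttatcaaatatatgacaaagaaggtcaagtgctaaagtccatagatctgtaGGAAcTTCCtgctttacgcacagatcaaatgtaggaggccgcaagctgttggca
Lyz2: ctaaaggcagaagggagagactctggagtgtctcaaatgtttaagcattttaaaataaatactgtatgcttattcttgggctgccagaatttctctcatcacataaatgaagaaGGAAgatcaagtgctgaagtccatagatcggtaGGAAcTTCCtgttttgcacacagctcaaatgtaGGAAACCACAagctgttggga

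The windows had the same base at 51.2% of 201 positions without gaps, and at 80 of the 100 positions nearest the gene. Without gaps, an inserted or lost base puts alike stretches out of register, so the share over the whole window can understate their likeness. Each window had 4 GGAA matches, a core that 89.3% of the 32851 windows of that length in the table hold. The Lyz1 window had 1 C/EBP match, found in 8.17% of all windows, and the Lyz2 window had 0. The Lyz2 window had 1 RUNX match, found in 34.3% of all windows and directly beside a GGAA, and the Lyz1 window had 0. Neither had an AP-1 match, which 5.59% of windows hold. A match describes letters only and is not a site of binding.

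Of the next 2 protein-coding genes on each side, 1 rose, 2 fell and 1 had no reads at 120 h, where 39.6% of all genes tested were called higher and 40.3% lower (edgeR, adjusted p under 0.05). Yeats4, a subunit of chromatin complexes beyond Lyz2, went from 56.4 ± 4.07 CPM at 0 h to 110 ± 2.98 CPM (SD, n = 2) at 120 h, a log2 change of 0.99 ± 0.089 (SE, edgeR quasi-likelihood test, adjusted p = 2.25e-09). The lysozyme-like gene 9530003J23Rik had 0 reads at 0, 24, 72 and 120 h. On the Lyz1 side, Cpsf6, an mRNA cleavage factor, was at 266 CPM at 0 h and 165 CPM at 120 h, a log2 change of -0.66 ± 0.10 (SE, adjusted p = 5.89e-06). Cpm, a carboxypeptidase, went from 0.230 CPM to 0 reads at 120 h (adjusted p = 0.000532). Of the 10 genes in a list of the lysozyme family, the other 8 were too low to test: Lyzl4 had 23 reads over all 24 libraries, Spaca5 and Lalba 3 each, and Lyzl1, Lyzl6, Spaca3, Lyg1 and Lyg2 had 0.

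Lyz1 is known from Paneth cells, and none of the 9 other Paneth cell markers on the list had a read at 0, 24, 72 or 120 h of withdrawal or in the R07 libraries. Over all 24 libraries Itln1 had 3 reads and the others had 0. Summed levels of mature myeloid markers were also higher at 120 h than at 0 h. The macrophage and monocyte sum first fell, by 24 h, a fall carried by Ccr2. AHK23750.1 and Lyz1 already lay above their 0 h libraries at that time. The summed level of 12 mature neutrophil markers was 57.2 to 57.6 CPM at 0 h, 164 to 165 at 24 h, 2000.0 to 2631 at 72 h and 8288 to 11857 at 120 h, with 1 marker at 0 reads at 0 h (Ly6g) and 0 at 120 h. The summed level of 14 macrophage and monocyte markers was 776 to 833 CPM at 0 h, 88.7 to 89.0 at 24 h, 758 to 880 at 72 h and 9667 to 9790 at 120 h, with 4 markers at 0 reads at 0 h, Marco and Mertk among them, and 1 at 120 h (Marco). Ccr2 alone made up 787 CPM of that sum at 0 h and 41.4 CPM at 24 h. Of the 13 tested markers of that list, 5 were called higher and 2 lower at 24 h. Of all genes tested, 13.5% were called higher and 14.4% lower at that time (edgeR, adjusted p under 0.05). The part of these markers in the lysozyme values was not tested.

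Lists of related genes are described by their counts beside all 14615 genes tested over the withdrawal libraries (edgeR quasi-likelihood test, adjusted p under 0.05). Of all genes, 13.5% were called higher and 14.4% lower at 24 h, 34.9% and 34.7% at 72 h, and 39.6% and 40.3% at 120 h, with a median log2 change of -0.06 at 120 h. All 12 mature neutrophil markers rose by 120 h (median log2 change 9.46, or 9.24 with genes at 0 reads set at their bound). Retnlg, a neutrophil granule cytokine, rose by 13.36 ± 0.41 (SE), the colony-stimulating factor receptor Csf3r by 3.98 ± 0.15 (SE) and the adhesion molecule Ceacam1 by 4.48 ± 0.12 (SE) on the log2 scale. Ly6g, a surface marker of neutrophils, went from 0 reads at 0 h to 22.2 CPM. Of 13 tested macrophage and monocyte markers, 12 rose and 1 fell (median 8.02, or 7.13 at the bounds). Csf1r, the macrophage growth factor receptor, rose by 11.49 ± 0.33 (SE) and the mannose receptor Mrc1 by 4.31 ± 0.21 (SE). Mertk, a receptor for dying cells, went from 0 reads to 6.91 CPM, and the monocyte chemokine receptor Ccr2 fell by 0.57 ± 0.13 (SE).

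Among 15 antimicrobial granule proteins 11 rose and 3 fell at 120 h (median log2 change 6.20, or 4.33 at the bounds), and at 72 h 13 rose and 1 fell. Mpo, myeloperoxidase of the primary granules, was at 3878 CPM at 0 h, 10469 at 24 h, 3190 at 72 h and 76.4 at 120 h (log2 change -5.64 ± 0.28, SE, adjusted p = 1.21e-13), and Ctsg, cathepsin G, changed by -5.34 ± 0.21 (SE, adjusted p = 2.70e-15). The third was Prtn3. Other primary granule proteins of the list were not lower at 120 h than at 0 h. Elane changed by 0.41 ± 0.30 (SE, adjusted p = 0.217) and Bpi rose by 1.47 ± 0.49 (SE, adjusted p = 0.00936). Between these times Elane rose and fell, at 2.83 CPM at 0 h, 18.7 at 24 h, 101 at 72 h and 3.71 at 120 h. Bpi was near the floor, at 0.141 CPM at 0 h and 0.410 at 120 h. Prtn3, Elane and Bpi were named after their values were seen. Ltf, lactoferrin of the later granules, rose by 12.71 ± 0.38 (SE) and S100a9, a calcium-binding protein of neutrophil cytosol, by 12.31 ± 0.32 (SE). Ltf was at 0.742 CPM at 0 h, 0.623 at 24 h, 269 at 72 h and 4879 at 120 h.

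Of 12 genes for regulators listed for lysozyme genes, 8 rose and 1 fell at 24 h, when AHK23750.1 was at 5.63 and 6.16 CPM and Lyz1 at 0.394 and 0.464 CPM. The number of genes called at 24 h, 4076, became 2681 when library A of 0 h was left out and 2699 when library B of 24 h was. By 120 h 9 had risen and 3 had fallen (median log2 change 2.94). Fos and Jun, the AP-1 subunits, rose by 6.00 ± 0.28 and 6.27 ± 0.26 (SE). Cebpa, the C/EBP factor of early granulocyte commitment, fell by 1.86 ± 0.10 and the insulator protein Ctcf fell by 0.93 ± 0.086 (SE). Cebpe, the C/EBP factor of granule maturation, and Spi1, which encodes PU.1, were chosen after their values were seen. Cebpe was at 9.02 CPM at 0 h, 123 at 24 h, 176 at 72 h and 104 at 120 h, and Spi1 at 82.4, 176, 373 and 526 CPM.

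Lysozyme releases peptidoglycan fragments and is also found in lysosomes. Of 13 tested genes for sensing or degrading peptidoglycan, 12 rose and 1 fell by 120 h (median log2 change 3.57). The receptors Tlr2 and Nod2 rose by 7.90 ± 0.27 and 7.23 ± 0.25 (SE), the hexokinase Hk2 rose by 1.01 ± 0.11 (SE), and the amidase Pglyrp2 fell by 5.13 ± 0.62 (SE). Of 20 lysosomal genes, acid hydrolases and the membrane proteins Lamp1 and Lamp2, 19 rose and 1 fell (median 2.97), with the protease Ctsb at 5.99 ± 0.14, the lipase Lipa at 5.20 ± 0.15, the galactosidase Glb1 at 0.41 ± 0.083 and the mannosidase Manba at -0.35 ± 0.079 (SE). All 10 progenitor genes fell (median -4.74). Among them Angpt1, a ligand for the receptor of stem cell niches, fell by 7.41 ± 0.24, Hlf, a stem cell transcription factor, by 6.52 ± 0.16, Gata2 by 2.90 ± 0.12 and Meis1, a HoxA9 partner, by 2.21 ± 0.14 (SE).

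**Figure D5:**
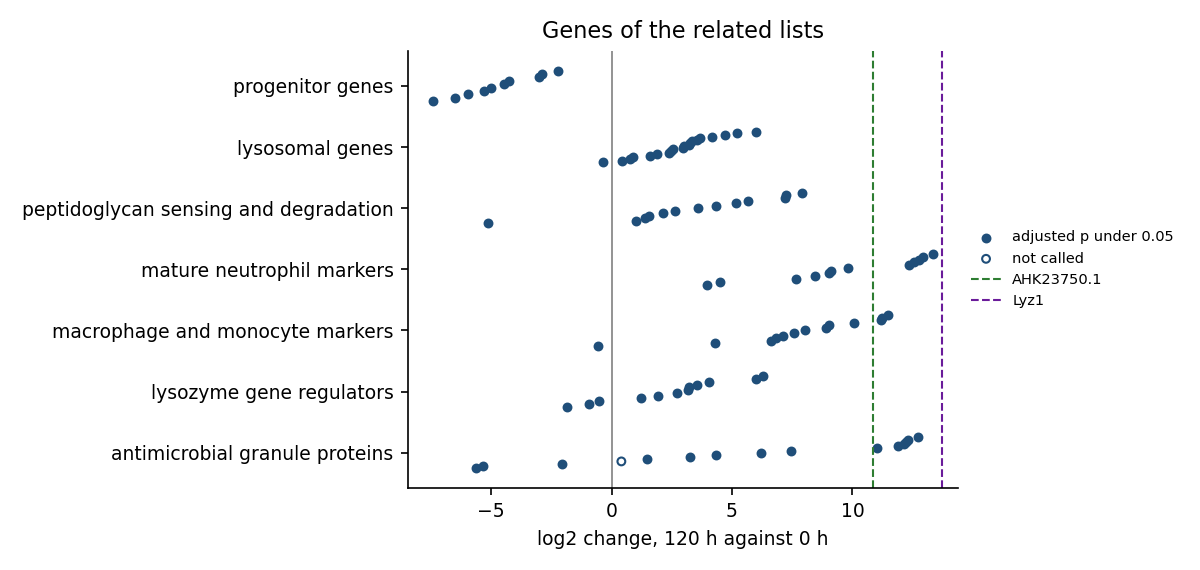
Log2 change at 120 h against 0 h (x axis) for each tested gene of 7 related lists (rows). Filled points have an adjusted p under 0.05 (edgeR) and the open point does not, the points of a row are spread upwards only to keep them apart, and dashed lines mark the fitted changes of AHK23750.1 (10.85) and Lyz1 (13.72). All progenitor genes lie below 0, and the neutrophil markers all lie above it.

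The lists were counted in the R07 libraries too. Against the withdrawal libraries of the same times, 10.5% of 14511 tested genes were called higher and 6.52% lower with R07, and the 3 R07 libraries from 36 h on against 0 h gave 10.1% higher and 6.53% lower of 13595. In the first comparison 4 of 12 neutrophil markers, 3 of 15 granule proteins and 5 of 12 regulators were lower, 1 granule protein was higher, and 6 of 10 progenitor genes were higher. In the second, 4 of 8 tested neutrophil markers, 5 of 10 macrophage and monocyte markers and 3 of 12 regulators were higher than at 0 h, and 1 of 10 progenitor genes was higher. Of the remaining lists, the first comparison called 1 of 13 macrophage and monocyte markers higher and 2 lower, 1 of 13 peptidoglycan genes higher and 2 lower, and 1 of 20 lysosomal genes in each direction. The second called 2 of 13 granule proteins higher, 5 of 13 peptidoglycan genes higher and 1 lower, and 6 of 20 lysosomal genes higher. At 120 h with R07 Ltf was at 0.560 CPM, S100a9 at 1.00 CPM, Csf1r at 5.18 CPM, Angpt1 at 588 CPM and Hlf at 642 CPM. Without either 0 h library edgeR called 0 genes in the second comparison (2608 without A and 2204 without B at an unadjusted p under 0.05, and 3519 by DESeq2 on all 5 libraries), 63 without the R07 library at 72 h and 5853 without the one at 36 h. The first comparison called 2469 genes, 1025 without the R07 library at 72 h, 3988 without the one at 12 h and 1322 to 1615 without any 1 withdrawal library of 36, 72 or 120 h.

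The genes whose pattern was most like that of each row were taken by Pearson's r of log2 CPM over the 20 withdrawal libraries, among 8762 rows (mean log2 CPM 3 or more). The points share the order of times, so high values are common. For AHK23750.1 they were Alox5ap, which serves leukotriene synthesis (r = 0.996), the aspartic protease Napsa (0.994), the leukocyte integrin chain Itgb2 (0.992), the membrane protein Itm2b (0.992) and the homeobox gene Hlx (0.992). Alox5ap went from 81.7 ± 6.29 CPM at 0 h through 857 CPM at 72 h to 1387 ± 125 CPM (SD, n = 2) at 120 h, and was at 259 CPM with R07 at 36 h and 119 CPM at 120 h. For Lyz1 they were Mpeg1, a pore-forming protein of phagocytes (r = 0.994), the membrane protein Cmtm6 (0.992), Plcl2 (0.992), the actin regulator Cap1 (0.990) and the deacetylase Sirt2 (0.988). Mpeg1 went from 46.9 ± 0.990 CPM at 0 h through 983 CPM at 72 h to 10625 ± 508 CPM (SD, n = 2) at 120 h, and was at 436 CPM with R07 at 120 h. The genes closest to Lyz2, led by the lymphocyte surface receptor Ly9 (r = 0.963), Picalm, Abhd12, Ubac2 and Pisd, rest on the 43 reads of that gene. The rows themselves had r = 0.939 and Spearman's rho = 0.914 between AHK23750.1 and Lyz1 over 20 libraries, and r = 0.891 and rho = 0.763 over the 14 libraries up to 48 h. With rank correlation, 1 of the 5 genes for AHK23750.1 and 0 of the 5 for Lyz1 remained.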

How the data were processed

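Poly(A) RNA of 24 libraries was sequenced with a stranded kit as 101-base read pairs, per the labels' protocols. STAR 2.4.2a, Picard and the build mm10 are named in the submitters' processing notes. The counting program, its strand setting and the annotation release are not given in the sources used here. The authors deposited raw read counts per gene. The 4 lines that name no gene (unmapped, multimapping, ambiguous, outside genes) were left out of totals, and genes held 82.7 to 85.7% of reads. Groups came from the sample titles. Symbols matched 44585 of 45318 Ensembl identifiers, version removed. Gene positions and transcripts are from GENCODE M21.

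CPM used edgeR's TMM scaling. Withdrawal times were compared in 1 fit over 20 libraries (edgeR 4.0.16, R 4.3.3, filterByExpr, quasi-likelihood test, Benjamini-Hochberg), and R07 libraries in 2 separate fits. SE of a log2 change is its size over the square root of F. The members and lists were chosen with earlier results of these data known. Named genes are the members, their neighbours, the 5 most alike of each, the family list and up to 2 highest and 2 lowest of each list at 120 h. The fits were tested on simulated counts with 200 genes changed 2-fold, far fewer than were called in the data. They recovered at least 99.5% of these genes. Recovery was not tested separately for rows with few reads, such as Lyz2 and early Lyz1. Recovery of an R07 difference that varies with time was not tested either. False calls made up 8.3% of calls for 120 h against 0 h and 6.5% for R07 against withdrawal. For R07 from 36 h on against 0 h they made up 4.3%. Alternatives were RLE scaling, no filter, DESeq2 1.42.0, the column letter as a block, only the libraries compared, and each library left out.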

Additional observations from a re-analysis of the deposited data

Results flagged for a closer look

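Both rising rows ended lower than at 36 h with R07 and higher without it. From 36 to 120 h the level of AHK23750.1 changed by -2.24 on the log2 scale between the R07 libraries and by 7.17 between the means of the withdrawal libraries. Over that interval Lyz1 changed by -1.43 on the log2 scale with R07, on 30 and 10 reads, and by 12.78 in the withdrawal libraries. The exact 95% Poisson intervals of Lyz1 with R07, 0.424 to 0.897 CPM at 36 h and 0.112 to 0.429 CPM at 120 h, overlap, and the 72 h library, at 0.734 CPM, lay above the one at 36 h. Both withdrawal libraries at 120 h lay above both at 36 h for either row. With 1 R07 library at each time, this difference between the arms was not tested.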

How the results depend on the processing

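Of 50 alternative counts of called genes, 34 stayed within 1.5 times the count reported and 16 did not. Of 138 alternative log2 changes of the 3 rows none reversed and 5, all of Lyz2, were counted as moved. A change counted as moved when it shifted by at least the SD between the libraries compared, or by nearly any amount from 0. For R07 against withdrawal this was the SD of the difference over the times. That limit is wide, and the shifts of AHK23750.1 and Lyz1 given below did not count as moved. Lyz2 had 0 reads at 0 h and with R07, so its alternatives say nothing about a reversal. For the same reason the sizes of its log2 changes depend on the fit and are not measured. Its change at 72 h, 3.73, became 0 without library A of that time. Without the R07 library at 36 h the log2 change of R07 against withdrawal became -5.85 in place of -3.58 for AHK23750.1 and -6.07 in place of -2.81 for Lyz1, and without the one at 120 h that of Lyz2 became -2.37 in place of -5.32 (-2.13 with DESeq2). Without the one at 72 h it was -1.41 for Lyz1, and without the one at 120 h -2.30 for AHK23750.1. At 72 and 120 h against 0 h every alternative count of called genes stayed within 1.5 times the count reported. With each library left out the 24 h count of 4076 ranged from 2681 to 3508. R07 against withdrawal (2469 genes) gave 4002 with DESeq2 and 1025 to 3988 with 1 library left out. Besides the libraries named with that result, the count moved most without a withdrawal library at 36 h (1590 and 1579 without A and B), 72 h (1322 and 1397) or 120 h (1615 and 1463). R07 from 36 h on against 0 h (2256 genes) gave 3519 with DESeq2 and 0 to 5853 with 1 library left out. Where leaving out a library left 1 at a time, that library was taken to vary like the others. The column letters, which the labels do not tie to replicate numbers, were not used to pair the samples in the main fit. Over 45 pairs of times the deviations of same-lettered libraries correlated at -0.629 to 0.677, with a median of 0.128 and 24 pairs over 0.1. Values this spread do not settle whether same-lettered libraries of some times belong together. With the letter as a replicate block 4181, 10176 and 11669 genes were called at 24, 72 and 120 h, against 4076, 10169 and 11671. Depth limits Lyz2 and early Lyz1, which rest on at most 24 reads a library.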
